A study of Mus musculus with 4 samples.

Results

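The genes described here are 10 transcription factors and transcriptional inhibitors that set the memory, follicular or effector state of T cells: the Id proteins *Id2* and *Id3*, the E proteins *Tcf3* and *Tcf12*, the TCF/LEF factors *Tcf7* (which encodes TCF1) and *Lef1*, and *Myb*, *Tox*, *Bcl6* and *Maf*. They were chosen by name as a known regulatory circuit, and all 10 are among the 25239 genes of the deposited count table. The expression values come from bulk RNA-seq of invariant NKT cells, a T cell lineage specific for lipids shown on CD1d, isolated from the small intestinal lamina propria (SI-LP) of wild-type C57BL/6Jax mice. The mice had been injected with a nanobody against ARTC2 shortly before the tissue was taken, and no other treatment is named. The cells were sorted as live TCRβ+ and CD1d-tetramer+ and as negative for B220, CD11b, CD11c and CD8. There are 4 libraries of this single condition, of which replicates 3 and 4 belong to a first experiment and replicates 1 and 2 to a second. Nothing in the labels says whether a library is 1 mouse or a pool, or gives the sex of the mice, so the spread between libraries, and any p value drawn from it, may be partly technical. The study set these cells beside NKT cells of lymphoid tissues, which are not analysed here.

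E proteins are transcription factors of the basic helix-loop-helix class that bind a short DNA word called the E-box as dimers. Id proteins carry the dimerization domain without the DNA-binding part, so an E protein bound to an Id protein is held off DNA. In the thymus, E proteins drive the receptor rearrangement and the early program of NKT cells, and Id proteins restrain them later, with ID2 known for effector cells and ID3 for naive, memory and follicular cells. TCF1 and LEF1 bind DNA through an HMG box and keep lymphocytes long-lived and able to self-renew. MYB supports NKT precursors, TOX the development of several T cell lineages, BCL6 is the repressor that defines follicular helper cells, and MAF acts in follicular, IL-17-producing and IL-10-producing T cells.

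Replicates 1 to 4 held 7233071, 8732858, 5487147 and 3882803 counts, and the ribosomal precursor *Rn45s* took 7.36% to 28.1% of them. Levels are given as CPM, counts relative to the library size after scaling by edgeR's TMM factors, or as TPM, which also corrects for gene length and is the only scale on which different genes are compared. A level of 3 counts, taken as the smallest that a library can show, was 0.418, 0.289, 0.673 and 0.757 CPM. Transcripts of other cells differed between the libraries of each experiment. The markers of T cells (9 genes) summed to 3222, 1109, 4901 and 1795 CPM in replicates 1 to 4. The 21 epithelial markers took 0.0987% (95% Wilson interval 0.0965% to 0.101%), 1.02% (1.02% to 1.03%), 0.0205% (0.0193% to 0.0217%) and 2.98% (2.963% to 2.997%) of the counts, and 6 genes of cycling cells between 0.00339% and 0.0607%, more in replicates 2 and 4. Replicates 2 and 4 therefore had fewer T cell transcripts and more epithelial and cycling transcripts than replicates 1 and 3. Of the epithelial markers, *Lyz1* alone had 2171, 3534, 47 and 84299 counts in replicates 1 to 4, which is most of the epithelial share of replicate 4. The plasma cell markers were higher in both libraries of the second experiment. In bulk samples, fewer cells of a type and less RNA per cell cannot be told apart.

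The regulatory sequence upstream of 4 of the genes is shown because the words that E proteins and TCF/LEF factors bind can be read in it: *Id2* and *Id3* are the inhibitor pair whose levels parted between libraries, *Tcf12* was the most even of the 10 in CPM, and *Lef1* the most even per T cell marker count. RefSeq (GRCm38.p6) gave a promoter for 8 of the 10 genes, in 7 of them at the gene start that the deposited table uses. Each line holds the 250 bases before that start, 5′ to 3′, and capitals mark an E-box, CANNTG.
Id2 (chr12:25096093-25096342, minus strand): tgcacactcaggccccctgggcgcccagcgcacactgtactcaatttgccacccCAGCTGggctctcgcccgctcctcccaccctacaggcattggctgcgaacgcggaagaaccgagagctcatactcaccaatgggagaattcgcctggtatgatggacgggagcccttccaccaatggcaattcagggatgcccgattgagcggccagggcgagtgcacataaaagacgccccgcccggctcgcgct
Id3 (chr4:136143572-136143821, plus strand): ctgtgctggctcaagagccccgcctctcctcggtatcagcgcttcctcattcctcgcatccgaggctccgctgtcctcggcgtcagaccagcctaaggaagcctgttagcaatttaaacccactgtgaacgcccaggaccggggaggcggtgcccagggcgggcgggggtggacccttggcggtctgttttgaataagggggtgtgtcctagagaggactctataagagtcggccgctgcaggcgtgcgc
Tcf12 (chr9:72111820-72112069, minus strand): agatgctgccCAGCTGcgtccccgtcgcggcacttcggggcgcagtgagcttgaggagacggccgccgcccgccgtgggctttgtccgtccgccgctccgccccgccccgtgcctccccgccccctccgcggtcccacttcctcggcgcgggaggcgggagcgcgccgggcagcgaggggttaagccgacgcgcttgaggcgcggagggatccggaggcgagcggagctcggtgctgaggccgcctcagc
Lef1 (chr3:131110047-131110296, plus strand): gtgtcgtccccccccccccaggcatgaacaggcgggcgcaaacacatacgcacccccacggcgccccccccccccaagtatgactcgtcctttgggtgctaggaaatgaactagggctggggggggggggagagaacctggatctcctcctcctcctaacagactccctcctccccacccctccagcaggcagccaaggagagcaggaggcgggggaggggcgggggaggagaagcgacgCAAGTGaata
The windows of *Id2* and *Tcf12* each hold CAGCTG, 196 and 240 bases before the start, which is one of the E-box forms known for E proteins. CAGCTG occurs in 13.0% of 32851 RefSeq windows of this length, and any E-box in 66.2%. The window of *Lef1* holds the E-box CAAGTG 10 bases before the start, and that of *Id3* holds none. The word CTTTGA or its complement TCAAAG, the core of the TCF/LEF site, is in none of the 4 windows and in 13.8% of all windows. RefSeq has further starts for *Lef1* (3) and *Tcf12* (2), not shown: of these, 1 window of *Lef1* holds CAGCTG and another holds TCAAAG at 2 places, while those of *Tcf12* hold neither word. CAGCTG, like any E-box, was searched on both strands as one word, since E-boxes read as E-boxes on both.

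All 10 genes passed the filter of at least 10 counts in at least 2 libraries, and 9 of them, all but *Id3*, had at least 10 counts in every library, which held for 69.2% of the 11689 genes tested. By TPM, the median of the 10 genes stood at percentile 74.8 of the genes tested, against 48.1 for the median gene. The level of 8 of the 10 was above percentile 50, as was that of 47.9% of all genes, and 0 reached the top 10% in the mean over libraries, as 7.47% of all genes did. From the highest mean TPM to the lowest the order was *Maf* (126 ± 58.2, SD, n = 4), *Tcf12* (119 ± 23.2), *Id2* (95.0 ± 15.8), *Tcf7* (93.4 ± 66.6), *Lef1* (74.7 ± 46.0), *Bcl6* (56.7 ± 15.4), *Tcf3* (44.9 ± 19.4), *Tox* (41.6 ± 17.7), *Id3* (33.5 ± 34.9) and *Myb* (18.3 ± 12.6). In each of the 9 pairs of neighbours in that order, the mean log2 ratio was smaller than its SD between libraries, so neighbours did not differ beyond their spread. The first place changed hands between libraries: *Maf* was highest in replicates 1 and 3, *Tcf12* in replicate 2 and *Tcf7* in replicate 4.

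**Figure D1:**
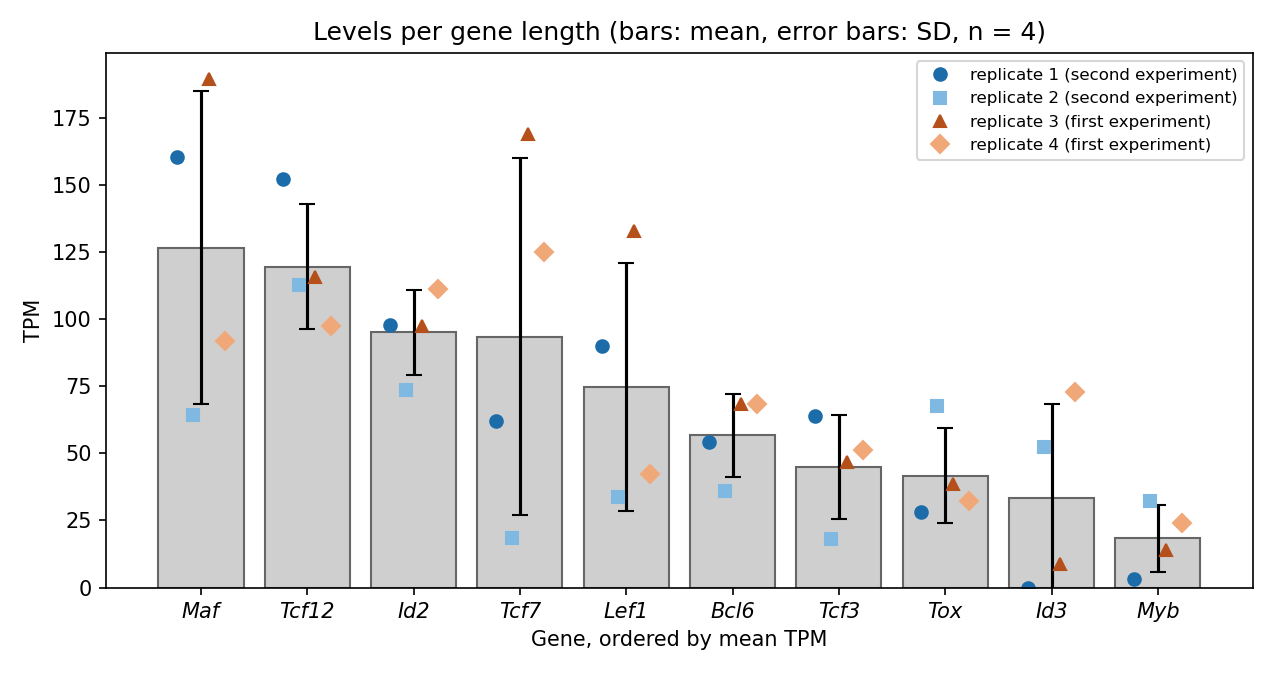
Expression of the 10 genes in TPM (y axis), ordered by the mean. Grey bars are the mean of 4 libraries, error bars the SD and symbols the single libraries; *Maf* and *Tcf12* head the order at 126 and 119 TPM, and the symbols of neighbouring genes overlap.

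Of the inhibitors, *Id2* (chr12:25093799-25096092, GRCm38) was present at similar CPM in all libraries, and *Id3* (chr4:136143822-136145392) was not. Per T cell marker count *Id2* was less even, as given below. *Id2* had 41.6, 30.5, 50.7 and 57.5 CPM in replicates 1 to 4, a mean of 45.1 ± 11.7 (SD, n = 4). Its coefficient of variation of 25.9% was lower than that of most genes (percentile 8.73 of the genes tested, whose median was 63.5%). *Id3* had 0, 169, 15 and 112 counts, or 0, 16.3, 3.37 and 28.2 CPM. Replicates 2 and 4 were high and replicates 1 and 3 low, in both experiments: *Id3* was at least 38.9-fold higher in replicate 2 than in replicate 1, taking 3 counts as the level of replicate 1, and 8.39-fold higher in replicate 4 than in replicate 3. These are the libraries with more epithelial and cycling transcripts. Of the low libraries, replicate 1 had the larger epithelial and cycling shares (0.0987% and 0.0113%, against 0.0205% and 0.00339% in replicate 3) but fewer *Id3* counts. Of the high ones, replicate 4 had the larger epithelial share and more *Id3*, with a slightly smaller cycling share. Whether *Id3* came from epithelial or cycling cells was not tested.

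The 2 genes made up most of the Id mRNA. *Id2* held 95.1%, 49.1%, 91.9% and 57.8% of the summed TPM of *Id1* to *Id4*, and *Id3* held 0%, 34.9%, 8.14% and 37.9%. *Id1* reached 15.1% in replicate 2 and *Id4* at most 0.845%. *Id2* exceeded *Id3* per length in 4 of 4 libraries, by 1.41-fold in replicate 2 and 1.53-fold in replicate 4 and by 11.3-fold in replicate 3. In replicate 1, where *Id3* had 0 counts, *Id2* was at least 74.7-fold higher than *Id3* at 3 counts.

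The E proteins were expressed in every library, with *Tcf12* (HEB; chr9:71844252-72111819) above *Tcf3* (chr10:80409165-80433653). *Tcf12* had 258, 186, 239 and 200.2 CPM, a mean of 221 ± 33.4 (SD, n = 4). Its coefficient of variation was 15.1%, at percentile 1.87 of the genes tested, and it was the single gene of the 10 whose highest library was under 1.5 times its lowest, which held for 3.42% of all genes. *Tcf3* had 75.8, 20.8, 67.5 and 73.6 CPM, a mean of 59.4 ± 26.0. Replicate 2 alone was low, and the other 3 libraries lay close together. Per length, *Tcf12* exceeded *Tcf3* in 4 of 4 libraries, by 2.38-, 6.27-, 2.48- and 1.91-fold.

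The third E protein gene, *Tcf4*, is not one of the 10 genes. It was higher in both libraries of the second experiment than in both of the first, with 101, 90.9, 4.71 and 20.2 CPM, as were 14.7% of all genes tested. It took 15.1% and 21.3% of the summed E protein TPM in the second experiment but 0.893% and 4.07% in the first. Its log2 fold change was 2.95 (standard error 0.94, adjusted p = 0.9997 by edgeR with Benjamini-Hochberg adjustment, unadjusted p = 0.0182). The plasma cell markers took 0.655% (95% Wilson interval 0.649% to 0.661%) and 0.839% (0.833% to 0.845%) of all counts in the second experiment, against 0.0114% (0.0105% to 0.0123%) and 0.0387% (0.0368% to 0.0407%) in the first. *Tcf4* is known for its role in plasmacytoid dendritic cells and B lineage cells, and the part of plasma cell RNA in its level was not tested.

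The balance of *Id2* and E protein mRNA was described as the ratio of *Id2*, without *Id3*, to the sum of *Tcf3* and *Tcf12* in TPM. It was 0.453, 0.563, 0.601 and 0.749 in replicates 1 to 4, on the log2 scale a mean of -0.78 ± 0.30 (SD, n = 4). All 4 libraries lay below 1, so there was less *Id2* mRNA per length than E protein mRNA in each, and the 2 libraries of the second experiment lay below those of the first. The mean was -0.94 with *Tcf4* counted among the E proteins. On CPM, which carries the longer E protein transcripts at a higher count, the mean was -2.65. The ratio does not hold for the whole Id family. Summed over *Id1* to *Id4*, the Id genes had 103, 150, 106 and 193 TPM in replicates 1 to 4. *Tcf3*, *Tcf12* and *Tcf4* together had 254, 166, 164 and 155 TPM, so the Id sum was the higher in replicate 4. Without *Tcf4*, as in the ratio above, the Id sum was the higher in replicates 2 and 4. In replicate 2 *Tcf12* had 112 and *Tcf3* 17.9 TPM, against the Id sum of 150 TPM.

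**Figure D2:**
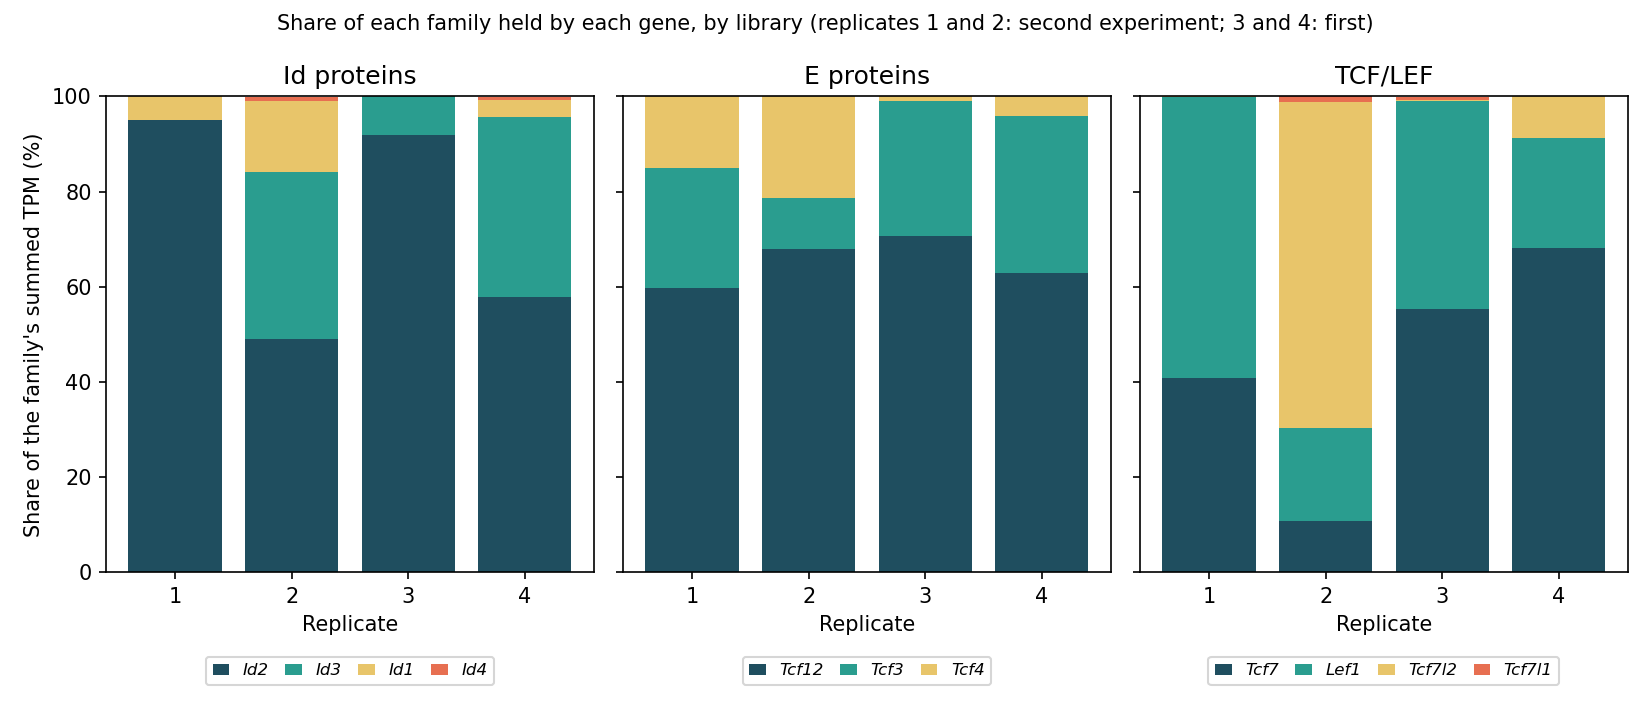
Share of each family's summed TPM (y axis, %) held by each gene in replicates 1 to 4 (x axis), for the Id proteins, the E proteins and the TCF/LEF factors. *Id2* holds 95.1% and 91.9% of the Id mRNA of replicates 1 and 3, against 49.1% and 57.8% in the other libraries, *Tcf12* holds most E protein mRNA in all 4, and *Tcf7l2* fills 68.5% of the TCF/LEF mRNA of replicate 2.

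Both TCF/LEF genes were expressed in every library, and neither led throughout. *Tcf7* (chr11:52252283-52283014) had 56.7, 16.4, 189 and 139 CPM, a mean of 100.1 ± 78.0 (SD, n = 4). Both libraries of the second experiment lay below both of the first, and the highest was 11.5-fold above the lowest. *Lef1* (chr3:131110297-131224357) had 111, 40.5, 200.1 and 63.3 CPM, a mean of 104 ± 70.7. Its experiments overlapped, and within each the replicate with more T cell transcripts was the higher. The ratio of *Tcf7* to *Lef1* in TPM was 0.688, 0.544, 1.27 and 2.95, on the log2 scale 0.12 ± 1.09. It was under 1 in the second experiment and over 1 in the first, with a mean within its spread.

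The other TCF genes were low, with an exception in the libraries rich in epithelial transcripts. *Tcf7l2*, the TCF of the intestinal epithelium, had 0.139, 177, 0.898 and 30.3 CPM and made up 0.0592%, 68.5%, 0.156% and 8.79% of the TCF/LEF TPM. It was high in replicates 2 and 4, as were the epithelial markers. *Tcf7l1* reached at most 1.14% of the family.

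*Myb* (chr10:21124930-21160984), the lowest of the 10 genes by mean TPM, had 3.90, 39.6, 21.5 and 37.1 CPM (28, 411, 96 and 147 counts), a mean of 25.5 ± 16.5 (SD, n = 4). Replicate 1 was the low library, and *Myb* was 10.1-fold higher in replicate 2 than 1 and 1.72-fold higher in replicate 4 than 3. *Myb* is also used by cycling intestinal progenitors, and within each experiment the cycling and epithelial markers were higher in the same library. Replicate 1 had larger epithelial and cycling shares (0.0987% and 0.0113%) than replicate 3 (0.0205% and 0.00339%) but less *Myb*. Replicate 2 was above replicate 4 in *Myb* and in the cycling share, and below it in the epithelial share. The part of such cells in the level of *Myb* was not tested. It held 69.9% to 97.4% of the summed TPM of *Myb*, *Mybl1* and *Mybl2*.

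*Tox* (chr4:6687386-6990723) had 27.0, 62.9, 44.9 and 37.3 CPM, a mean of 43.0 ± 15.1 (SD, n = 4). Replicate 2 was the highest and replicate 1 the lowest, so the second experiment enclosed the first. *Tox4*, a relative expressed in most cells, had the larger share of the family in 3 of the 4 libraries, and *Tox* held 19.9% to 50.1% of the summed TPM.

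*Bcl6* (chr16:23965050-23988852) had 91.4, 58.7, 140.0 and 139 CPM, a mean of 107 ± 39.6 (SD, n = 4). Both libraries of the second experiment lay below both of the first, which differed by 1.01-fold. *Maf* (chr8:115703253-115706894) had 195, 76.4, 282 and 136 CPM, a mean of 172 ± 87.7. Its experiments overlapped, and replicates 1 and 3 were higher than replicates 2 and 4. Per length, *Maf* exceeded *Bcl6* in 4 of 4 libraries, by 2.95-, 1.79-, 2.78- and 1.35-fold. Among the large and small MAF genes, *Maf* held an even share of 34.6% to 39.7% of the summed TPM, beside *Maff* with 24.4% to 52.5%.

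**Figure D3:**
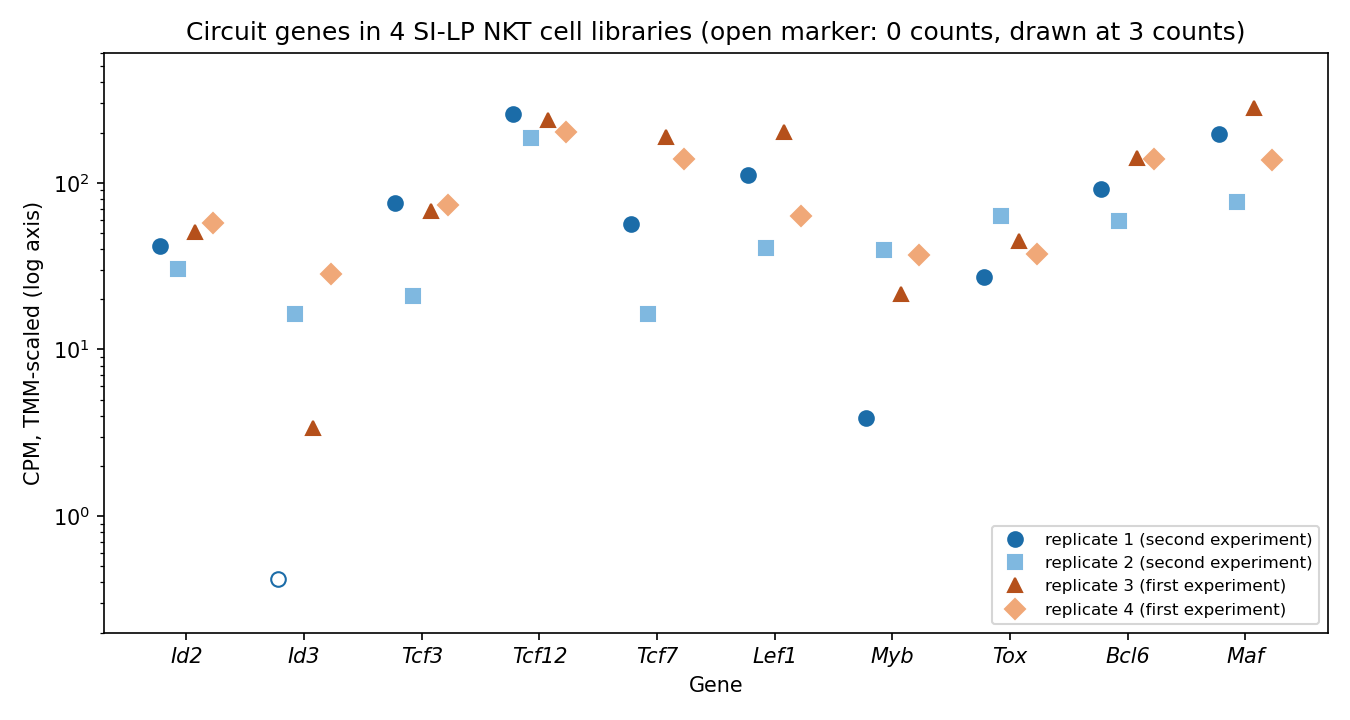
Level of each of the 10 genes (x axis) in each library (symbols), in TMM-scaled CPM on a log axis. The open circle is *Id3* in replicate 1, which had 0 counts and is drawn at the level of 3 counts (0.418 CPM); *Tcf12* is tight, from 186 to 258 CPM, and *Id3*, *Myb* and *Tcf7* are spread widest.

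The libraries of each experiment were then set side by side, as a description with 1 library on each side and no test. A difference of over 1 log2 unit in the same direction in both experiments was found for *Id3*, higher in replicates 2 and 4 (as were 19% of all genes tested), and for *Lef1* and *Maf*, lower in replicates 2 and 4 (8.08% of all genes). *Lef1* was lower by 2.74-fold in replicate 2 than 1 and by 3.16-fold in replicate 4 than 3, and *Maf* by 2.55- and 2.07-fold. The T cell markers had median log2 differences of -1.18 and -1.47, and 6 of 9 were lower by over 1 log2 unit in both. The epithelial markers had medians of 3.28 and 5.46, with 17 of 21 higher by over 1 in both, and all genes tested had medians of 0.13 and 0.08. By direction alone, *Id3* and *Myb*, 2 of the 10, were higher in replicate 2 than 1 and in 4 than 3, as were 35.2% of all genes, and 5 of the 10 (*Tcf12*, *Tcf7*, *Lef1*, *Bcl6* and *Maf*) were lower, as were 30%. With library size alone in place of TMM factors, *Tcf12*, *Tox* and *Bcl6* were higher in replicate 4 than 3, by 0.07, 0.06 and 0.32 log2 units. The other 7 genes did not pass 1 log2 unit in both experiments: *Tcf7* was lower by 3.46-fold in replicate 2 than 1 and by 1.36-fold in replicate 4 than 3, while *Tcf3* was lower by 3.64-fold in the first of these and differed by 1.09-fold in the second.

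**Figure D4:**
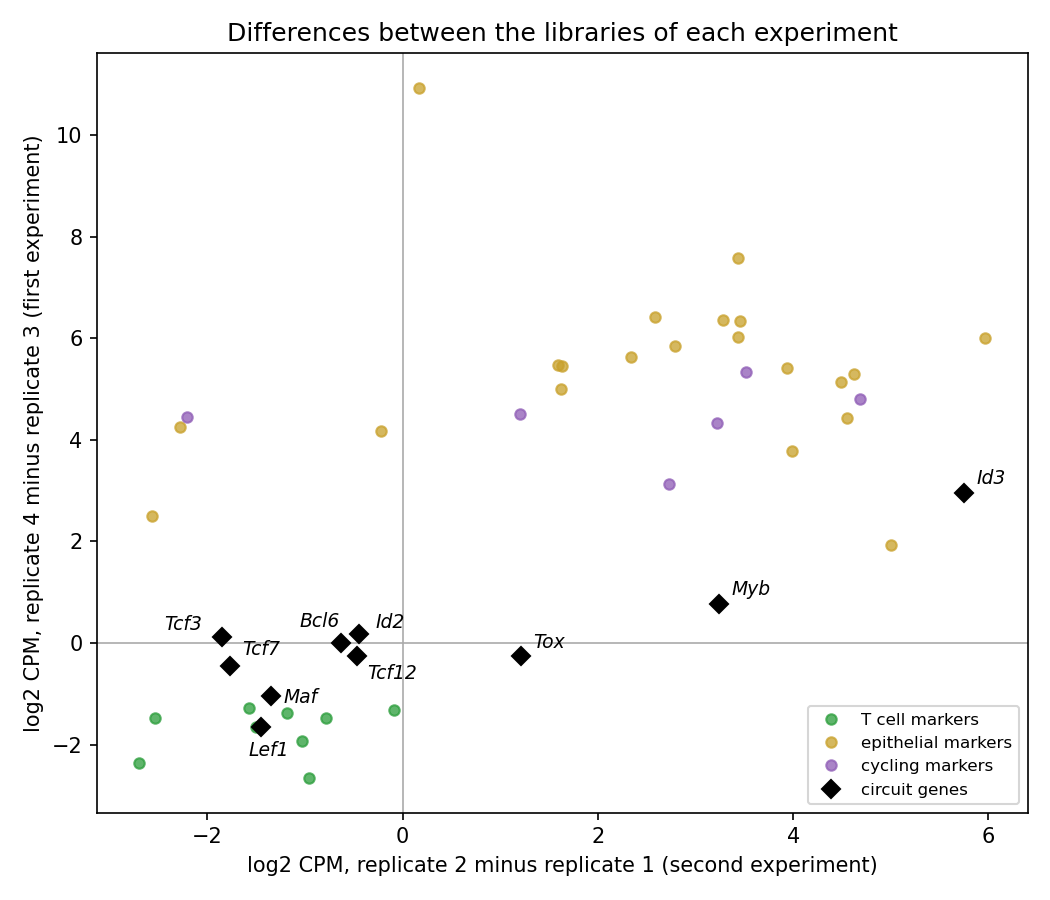
Log2 difference in CPM between the libraries of each experiment, replicate 2 minus 1 (x axis) against replicate 4 minus 3 (y axis), computed with a prior count of 2. Black diamonds are the 10 genes, green, yellow and purple circles the markers of T cells, epithelial cells and cycling cells; *Lef1* and *Maf* lie among the T cell markers and *Id3* and *Myb* at the right of the other genes (the position of *Id3* on the x axis depends on the prior count, since it had 0 counts in replicate 1).

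Since the amount of T cell transcripts differed between libraries, each level was also set against the summed counts of the 9 T cell markers, a scaling chosen with the values known. Per 1000 counts of these markers, *Lef1* had 34.4, 36.5, 40.8 and 35.3 counts, and the highest library was 1.19-fold above the lowest. *Maf* had 60.6, 68.9, 57.6 and 75.7, with a ratio of 1.32. A ratio under 1.5 was found for these 2 of the 10 genes and for 0.992% of all genes tested. *Cd3e* alone made up 42.8% to 57.3% of the marker counts. Without it the ratio was 1.22 for *Lef1* and 1.55 for *Maf*, so that 1 of the 10 genes and 0.616% of all genes remained under 1.5. This scale raised the median log2 difference of all genes tested from 0.13 to 1.63 for replicate 2 minus 1 and from 0.08 to 1.49 for replicate 4 minus 3. Of the 20 differences within experiments (2 for each of the 10 genes), 13 were lower in CPM, and 10 of these, in *Id2*, *Tcf12*, *Tcf7*, *Lef1*, *Tox*, *Bcl6* and *Maf*, turned from lower to higher, to values between 0.084 and 1.44. Those of *Lef1* (0.08 for replicate 2 minus 1, -0.21 for 4 minus 3) and *Maf* (0.19 and 0.40) lay below the median of all genes in both experiments.

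The other genes with counts in all libraries were less even per T cell marker count than in CPM, with the exceptions of *Tcf3* and *Tcf7*. *Id2* had 12.9, 27.5, 10.3 and 32.04 counts per 1000, 3.10-fold between the highest and the lowest library, where CPM gave 1.88-fold. *Tcf12* had a ratio of 3.43, where CPM gave 1.39, and *Bcl6* 2.74, where CPM gave 2.38. *Tcf7* had 17.6, 14.8, 38.5 and 77.3, so the second experiment again lay below the first. *Myb* was the least even, with a ratio of 29.5. On this scale 5 of the 10 genes were higher by over 1 log2 unit in replicates 2 and 4, as were 46.7% of all genes tested, and 0 were lower by as much, as were 1.01% of all genes.

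Between the second and the first experiment, none of the 10 genes was called by the quasi-likelihood test of edgeR after Benjamini-Hochberg adjustment (0% of all 11689 genes passed an adjusted p of 0.05, and 2.12% an unadjusted one). The adjusted p was 0.9997 for each of the 10 genes. *Tcf7* was the single one with an unadjusted p under 0.05, with a log2 fold change of -2.16 (standard error 0.78, unadjusted p = 0.0293), lower in both libraries of the second experiment than in both of the first. DESeq2 gave *Tcf7* -2.14 (adjusted p = 0.779). The log2 fold changes of the others ran from -0.95 for *Id3* (standard error 2.29) and -0.90 for *Bcl6* (0.58) to 0.13 for *Tox* (0.81). In 3 of the 10 genes, *Id2*, *Tcf7* and *Bcl6*, both libraries of the second experiment were lower than both of the first, as in 14.4% of all genes, and in 0 of the 10 they were higher, as in 14.7%. The biological coefficient of variation of these libraries was 0.976.

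**Figure D5:**
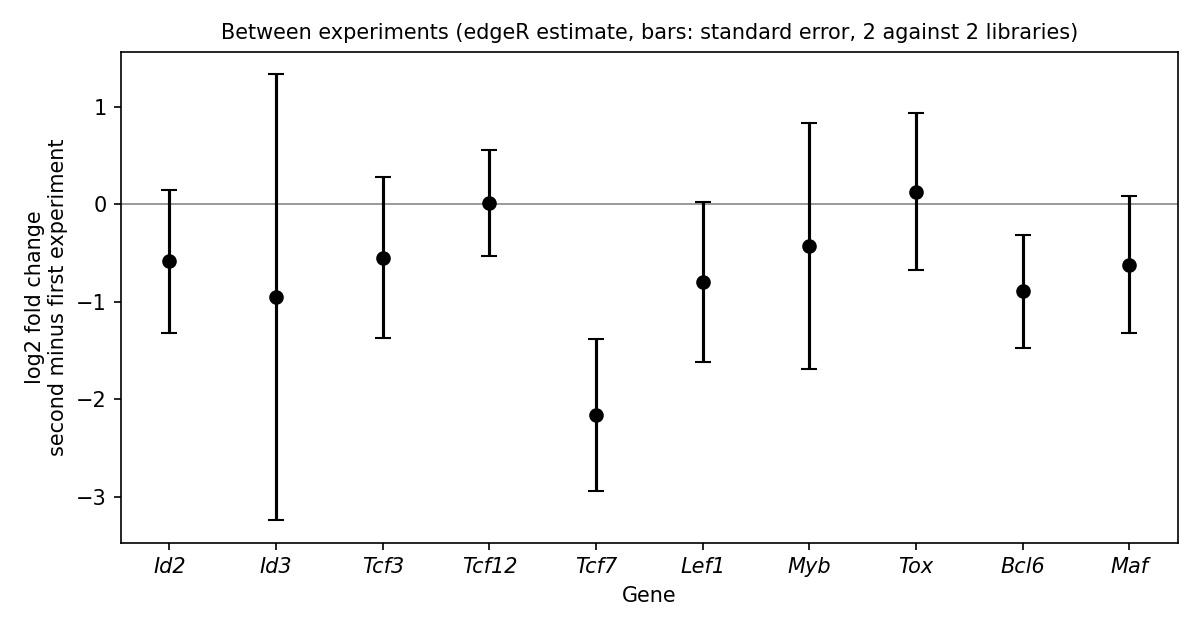
Log2 fold change of each gene between the second and the first experiment (y axis), with a standard error derived from the F statistic of edgeR (bars), 2 libraries against 2. *Tcf7* lies lowest at -2.16 and the bars of all genes but *Tcf7* and *Bcl6* reach across 0.

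The genes that these factors act on or with were read from lists of known members. Of 12 genes known as E protein targets in T cells, 8 passed the filter. The highest by mean TPM were *Il7r*, the interleukin 7 receptor (378 ± 238 CPM, SD, n = 4), *Foxo1* (285 ± 153), a factor that sustains *Il7r*, and *Zbtb16* (227 ± 177), which encodes the NKT lineage factor PLZF. The recombinase gene *Rag2* had 0 counts in all libraries, and *Rag1* and *Ptcra*, genes of immature thymocytes, had at most 2 counts. *Il7r* (log2 differences of -1.51 and -2.01) and *Zbtb16* (-2.08 and -1.43) were among 4 of the 8 that were lower by over 1 log2 unit in replicates 2 and 4, as were 8.08% of all genes tested. Higher by as much was 1 of the 8, as were 19% of all genes. By edgeR, 0 of the 8 had an adjusted or unadjusted p under 0.05 between the experiments. Over the 68 genes of all these lists that passed the filter, edgeR called 0 and DESeq2 1, *Pou2af1*.

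Of 12 partners of TCF1 and LEF1 and WNT target genes in the table, 10 passed. *Ctnnb1*, which encodes β-catenin, had 340.3 ± 80.3 CPM, the corepressor *Tle5* 134 ± 83.5 and the chromatin organizer *Satb1* 836 ± 506, the highest by TPM of this list. *Satb1* was lower by over 1 log2 unit in replicates 2 and 4 (1160, 221, 1328 and 633 CPM), as *Lef1* and *Maf* were, while *Ctnnb1* was higher in them (276, 436, 272 and 378 CPM). *Satb1* was the only 1 of the 10 lower by over 1 log2 unit, as were 8.08% of all genes tested. Higher by as much were 2 of the 10, as were 19% of all genes. *Axin2*, a target of WNT signalling, had 53.8, 48.8, 23.6 and 74.6 CPM. None of the 10 had an unadjusted p under 0.05 by edgeR or DESeq2.

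Of 12 genes of central memory or stem-like T cells, 9 passed. *Il7r*, *Cd27* (86.1 ± 68.6 CPM) and the survival gene *Bcl2* (392 ± 220) led by TPM, while *Eomes* had 0 counts in all libraries. *Il7r* and *Cd27*, 2 of the 9, were lower by over 1 log2 unit in replicates 2 and 4 (8.08% of all genes tested), and 1 of the 9 was higher by as much (19% of all genes). Among 12 effector genes, 11 passed, with a median percentile of 86.2, led by *Bhlhe40* (1057 ± 608 CPM), *Gzmb* (353 ± 255) and *Runx3* (274 ± 250). These were the only 3 of the 11 that were lower by over 1 log2 unit in replicates 2 and 4 (8.08% of all genes tested). Of the 11, 1 was higher by as much (19% of all genes). The median percentile of the memory genes that passed was 69.3. In either list 0 genes had an unadjusted p under 0.05 by edgeR or DESeq2.

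Of 12 follicular helper genes, 8 passed, and the genes of the list were uneven. *Icos*, a costimulatory receptor, had 590 ± 338 CPM and *Il4* 32.8 ± 20.5, whereas *Cxcr5*, the receptor that takes cells into follicles, had 15, 1, 0 and 0 counts, and *Il21* 1 count in all. *Pou2af1*, a B lineage coactivator, had 450, 328, 0 and 12.1 CPM, so it was high in the second experiment, where plasma cell markers were high too, with a log2 fold change of 6.01 (standard error 1.76, adjusted p = 0.9997 by edgeR with Benjamini-Hochberg adjustment, unadjusted p = 0.0124). DESeq2 gave it an adjusted p of 0.0137. The part of plasma cell RNA in it was not tested.

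Of 8 genes known with MAF in regulatory or IL-10-producing T cells, 7 passed, led by *Icos*, *Ctla4* and *Nfil3* (22.5 ± 12.8 CPM). *Ctla4*, an inhibitory receptor, had 247, 147, 41.5 and 27.5 CPM, both libraries of the second experiment above both of the first, as in 14.7% of all genes tested. Its log2 fold change was 2.51 (standard error 0.64, adjusted p = 0.9997 by edgeR with Benjamini-Hochberg adjustment, unadjusted p = 0.00654). All 6 BCL6 corepressor genes passed, with *Ncor1* (549 ± 147 CPM), *Zbtb7a* (91.7 ± 34.4) and *Hdac7* (81.4 ± 48.1) the highest by TPM, and 0 of them had an unadjusted p under 0.05 by edgeR or DESeq2. Of 18 relatives of the 10 genes, among them *Tcf4*, 12 passed, led by *Maff* (141 ± 97.5 CPM), *Tox4* (124 ± 41.7) and *Mafk* (48.5 ± 13.3), and *Lyl1* had 0 counts in all libraries.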

How the data were processed

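RNA-seq was analysed in 4 SI-LP NKT cell libraries. The authors counted paired reads on RefSeq exons with featureCounts 1.6.4, per the file headers without a strand option, and deposited raw counts with gene lengths. The methods name HISAT2 and GRCm39, and the submitters' processing notes name GRCm38.p6, Bowtie2 and RSEM. The coordinates deposited are those of GRCm38. None of the exons of the 10 genes overlap those of another gene. The table held 2 further library columns that match no sample label, and these were not used.

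For CPM, library sizes were multiplied by TMM factors (edgeR), and TPM used the deposited lengths. A gene entered the comparison of experiments with 10 or more counts in 2 or more libraries (11689 genes). The quasi-likelihood test of edgeR was applied, its p values were adjusted over all these genes by the Benjamini-Hochberg method, and a gene was called at an adjusted p under 0.05. The standard errors given with edgeR's log2 fold changes were derived, as the absolute log2 fold change over the square root of its F statistic. Log2 differences within an experiment used a prior count of 2. With 1 condition, the test sets the difference between the first and the second experiment against the spread between libraries within them. The genes named are the 10 genes, the 3 genes of highest mean TPM in each list, and those with 0 counts in all libraries. Others were named after their values were seen (*Tcf4*, *Id1*, *Id4*, *Tcf7l1*, *Tcf7l2*, *Mybl1*, *Mybl2*, *Rag1*, *Ptcra*, *Axin2*, *Cxcr5*, *Il21*, *Lyz1*). The 10 genes and the lists were chosen with earlier results of these data known. Some genes of the lists are not reported here.

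Intervals and the floor of 3 counts cover counting error only, since PCR reads without molecular identifiers are not independent molecules. The test was checked on simulated counts. The pass mark was set on counts with less spread than these libraries have, so it does not show the power of the test here. Alternatives were DESeq2, other size factors and filters, T cell marker scaling, and leaving out each replicate. The fits ran in R 4.3.3 (edgeR 4.0.16 and, as an alternative, DESeq2 1.42.0, with limma 3.58.1), and the descriptions and figures in Python 3.11.15 with pandas 2.3.3, numpy 2.4.6, matplotlib 3.10.9 and scipy 1.17.1.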

Additional observations from a re-analysis of the deposited data

Results flagged for a closer look

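Of 25 values examined for a library that stands apart from the other 3, 1 did: the CPM of *Tcf3* in replicate 2 (20.8 CPM, against 67.5 to 75.8 CPM in the others) lay below the nearest library by 0.85 of the whole range, more than Dixon's critical value allows. Chance gives about 1 in 20, or 1.25 of 25. Replicate 2 was also the lowest library for *Id2*, *Tcf12*, *Tcf7*, *Lef1*, *Bcl6* and *Maf*, and it had the fewest T cell marker CPM (1109).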

How the results depend on the processing

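None of the 10 genes was called between the experiments in any of the 10 fits, by edgeR or DESeq2. Over all genes, edgeR called 0 (248 at an unadjusted p under 0.05), DESeq2 41, edgeR without a filter on low counts 60, and edgeR with a replicate left out 0 to 81, with 10 without replicate 3 and 81 without replicate 4. The lone library of an arm is then assumed to vary like the others. With a replicate left out, the log2 fold change between experiments turned direction in 6 genes, in none of them past the threshold, and ran from -9.37 to 1.27 for *Id3* (0.06 without replicate 1, 1.27 without 4, while the -9.37 without replicate 2 is fitted against 0 counts and is no bound, and with 3 counts in replicate 1 *Id3* was at least 37.8-fold lower), from -1.73 to 0.12 for *Tcf3* (0.12 without 2), from -0.21 to 0.25 for *Tcf12* (-0.21 without 1, -0.11 without 4), from -1.66 to 0.26 for *Lef1* (0.26 without 3), from -2.89 to 0.46 for *Myb* (0.46 without 1, 0.01 without 4) and from -0.59 to 0.64 for *Tox* (-0.59 without 2). With at least 10 counts in all libraries *Tcf12* had -0.013. That of *Tcf7* ran from -3.29 without replicate 1 to -1.51 without replicate 2, and the unadjusted p rose above 0.05 without replicate 2 (0.0884) or 3 (0.122).

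The log2 ratio of *Id2* to E proteins (-0.78) was -2.65 on CPM, which does not correct for length, and -0.90 to -0.66 with a replicate left out. The log2 ratio of *Tcf7* to *Lef1* (0.12) was -0.31 on CPM, -0.36 to 0.46 with a replicate left out (-0.36 without replicate 4) and -0.10 in replicates 1 and 3 alone, an alternative chosen after seeing the data. Scaled to the T cell markers, which raised the median of all genes to 1.63 and 1.49, 10 of the 13 lower differences within experiments turned upward, in 7 genes. Of those over 1 log2 unit in CPM, these were *Lef1* (0.084 for replicate 2 minus 1) and *Maf* (0.185, and 0.40 for replicate 4 minus 3). The causes were not tested. Of the 68 genes of the wider lists tested, DESeq2 called *Pou2af1* alone (4 had an unadjusted p under 0.05, against 3 in edgeR). In replicates 1 and 3 alone, the mean CPM of *Id3* was 1.68 and that of *Myb* 12.7. The median percentile stayed between 67.7 and 80.4. No paired analysis was possible because the experiments share no replicate number and hold a single condition.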
